A study of Homo sapiens with 6 samples.

Results

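The amino acid transporter genes described here are the genes named by symbol as members of 7 solute carrier (SLC) families, SLC1A, SLC3A, SLC6A, SLC7A, SLC36A, SLC38A and SLC43A. They numbered 59 of the 26334 genes with a row in the count table, and the rule that selects them uses the gene symbol and no measured value. mRNA was measured by poly(A) RNA sequencing in MCF10DCIS.com, a human breast cancer cell line of basal type derived from the MCF10A lineage. Cells carrying a short hairpin RNA against luciferase (shLuc, control, 3 libraries) were compared with cells carrying short hairpin RNAs against WDR5 (shWDR5, 3 libraries), and the comparison asked which transcripts changed on silencing of WDR5. WDR5 is a shared subunit of the MLL/SET1 complexes, which methylate lysine 4 of histone H3. Both groups were infected with a pRSI vector that also carries TagRFP and puromycin resistance, both were selected with 3 µg/ml puromycin, and both grew in medium with 5% horse serum and 2 mM L-glutamine. All 6 libraries came from 1 cell line, and the labels do not say whether replicates were separate infections or cultures, so the p-values measure the spread between these libraries only. The libraries held 38218108 to 57640167 reads assigned to genes.

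Amino acids are polar and cross membranes only through carriers. Some carriers in the plasma membrane use the sodium gradient to concentrate amino acids (SLC1A, SLC6A and most SLC38A members), and others exchange one amino acid for another, among them the SLC7A light chains, which reach the cell surface as heterodimers with the heavy chain SLC3A2 (CD98, 4F2hc) or SLC3A1. Further members sit in the lysosome, where SLC38A9 and SLC36A1 pass the amino acid supply on to the kinase complex mTORC1. Tumour cells are known to rely on leucine entry through SLC7A5, glutamine entry through SLC1A5 and cystine entry through SLC7A11.

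WDR5 itself was lower in every shWDR5 library. Its level was 52.6, 48.5 and 51.3 CPM (read counts scaled to a fixed library total, adjusted by TMM, for comparison between libraries) in shLuc and 23.4, 24.4 and 20.8 CPM in shWDR5. This was 2.22-fold lower (log2 fold change -1.15 ± 0.07 SE, adjusted p = 8.7e-07, edgeR's quasi-likelihood test with Benjamini-Hochberg adjustment over all genes tested, which is the test behind every adjusted p given here). The labelled cell type was checked on marker genes. The 7 basal markers KRT5, KRT6A, KRT14, KRT17, TP63, CDH3 and EGFR summed to 4820 to 5120 TPM (transcript abundance per gene length, scaled to a fixed total) in shLuc and 8340 to 9390 TPM in shWDR5, with KRT17 the most abundant. Of these 7, EGFR was lower in shWDR5 and the other 6 were higher. The shared epithelial genes EPCAM, CDH1, KRT8 and KRT18 summed to 5130 to 5280 TPM in shLuc and 4510 to 4740 TPM in shWDR5, with CDH1 and EPCAM lower and the keratins KRT8 and KRT18 not called. The luminal markers ESR1, PGR, FOXA1 and GATA3 summed to 46.5 to 56.4 TPM in shLuc and 34.2 to 39.6 TPM in shWDR5, with PGR at most 0.00834 TPM and with FOXA1 and GATA3 lower (log2 fold changes -0.41 and -0.39, adjusted p = 0.0052 and 0.0014). Among markers of other cell types LUM and CD3E had no reads in any library, PTPRC reached at most 0.0483 TPM and VWF at most 0.0738 TPM. COL1A1 was the most abundant fibroblast marker at 5.86 to 9.68 TPM, CD14 the most abundant immune marker at 1.02 to 2.65 TPM and PECAM1 the most abundant endothelial marker at 2.07 to 3.85 TPM, and each of these was lower in shWDR5. The 4 fibroblast markers summed to 6.09 to 9.99 TPM, the 4 immune markers to 1.05 to 2.66 TPM and the 3 endothelial markers to 2.48 to 4.57 TPM. The part of these marker changes in the transporter results was not tested.

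Transporter genes took a similar share of each library, 0.349% to 0.374% of reads, and summed to 1751 to 1962 TPM. Of the 59 members, 34 had enough reads to be tested and 25 did not. None of the 25 had more than 11 reads in any library, their median total over all 6 libraries was 5 reads, and SLC7A3, SLC7A10 and SLC6A18 had no read at all. The untested members were 10 of the 19 SLC6A genes, 5 of the 11 SLC38A genes, 3 of the 5 cationic carriers, 3 of the 8 light chains, 2 of the 5 glutamate carriers, SLC36A3 and the heavy chain SLC3A1.

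Of the 34 tested members, 11 were called higher in shWDR5, 8 were called lower and 15 were not called at an adjusted p below 0.05. The calls were 32.4% higher and 23.5% lower among tested members, beside 26.6% higher and 29.9% lower among all 16117 genes tested, so the share of called transporters lay near that of the transcriptome. With a further limit of 0.6 on the log2 fold change, 5 members were higher and 3 lower (14.7% and 8.82%), beside 10.9% and 12.0% of all genes. The median log2 fold change was -0.01 in the tested members and -0.01 in all genes. Log2 fold changes of the members ran from -1.91 for SLC43A1 to 1.34 for SLC6A16. The value of SLC43A1 rests on few reads, and the gene passed the read filter through shLuc, where it is high. SLC43A1 is among the 8 members called lower and the 3 lower members past the limit of 0.6. Leaving SLC43A1 aside, the lowest value was -1.05 for SLC36A4. Calls in both directions occurred in 4 of the 9 groups by transport role.

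**Figure D1:**
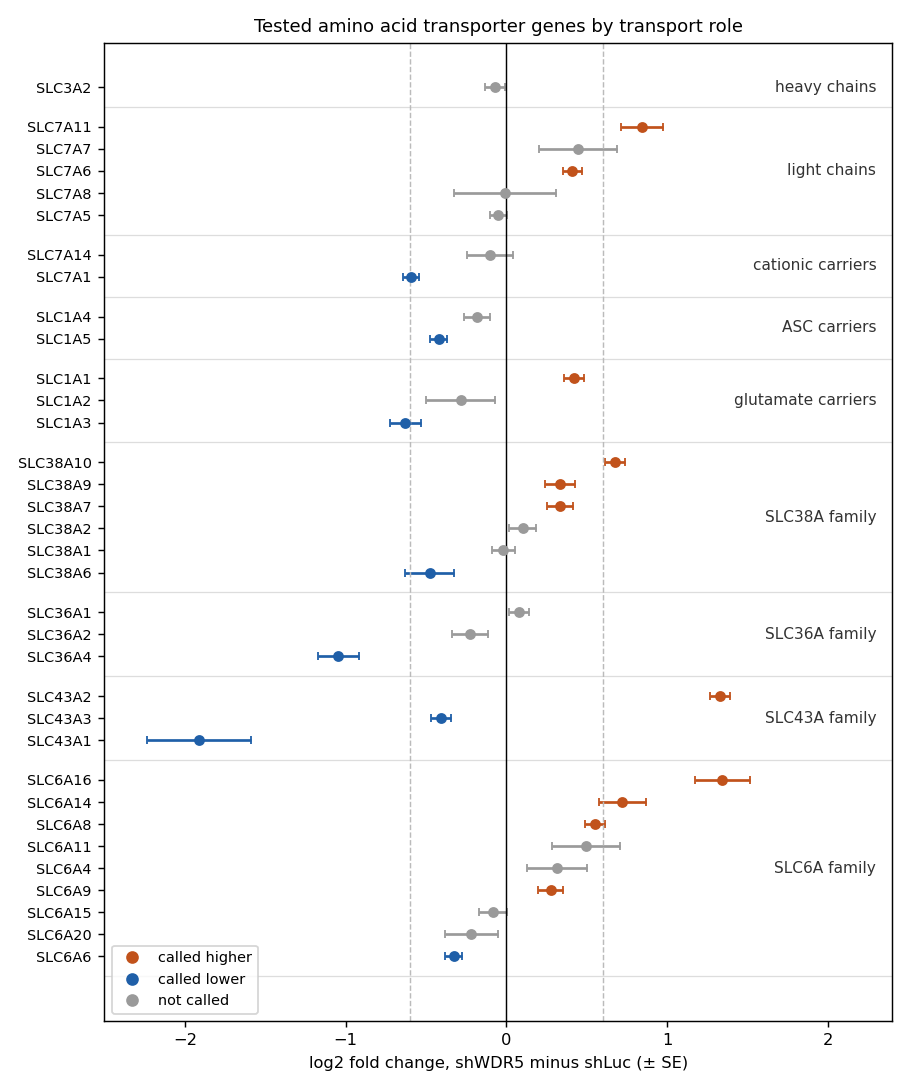
Log2 fold change (shWDR5 minus shLuc, x axis) of the 34 tested transporter genes, grouped by transport role, with bars for ± SE from edgeR's fit over 3 libraries a group and dashed lines at 0.6 on either side of 0. Both directions occur within the glutamate carriers and the SLC38A, SLC43A and SLC6A families, while SLC3A2 and SLC7A5 lie next to 0.

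Per length, SLC7A5 and SLC38A2 were the most abundant transporters. SLC7A5 was at 408 ± 8.76 TPM in shLuc and 374 ± 8.89 TPM in shWDR5 (mean ± SD, n = 3), and SLC38A2 at 348 ± 39.3 and 354 ± 37.8 TPM. In shWDR5 the gap between them lay within the spread of SLC38A2. The 5 most abundant over all 6 libraries, SLC7A5, SLC38A2, SLC3A2, SLC1A5 and SLC38A1, made up 68.9% to 69.3% of all transporter TPM in shLuc and 66.5% to 67.1% in shWDR5. Of these 5, SLC1A5 was called (lower) and the other 4 were not, beside 29.9% of all genes called lower and 26.6% higher. SLC43A3 lay beside SLC38A1 in shLuc, at 152 ± 3.55 against 151 ± 15.8 TPM, a gap within their spread, and lay below it in shWDR5, at 109 ± 5.99 against 142 ± 12.4 TPM.

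**Figure D2:**
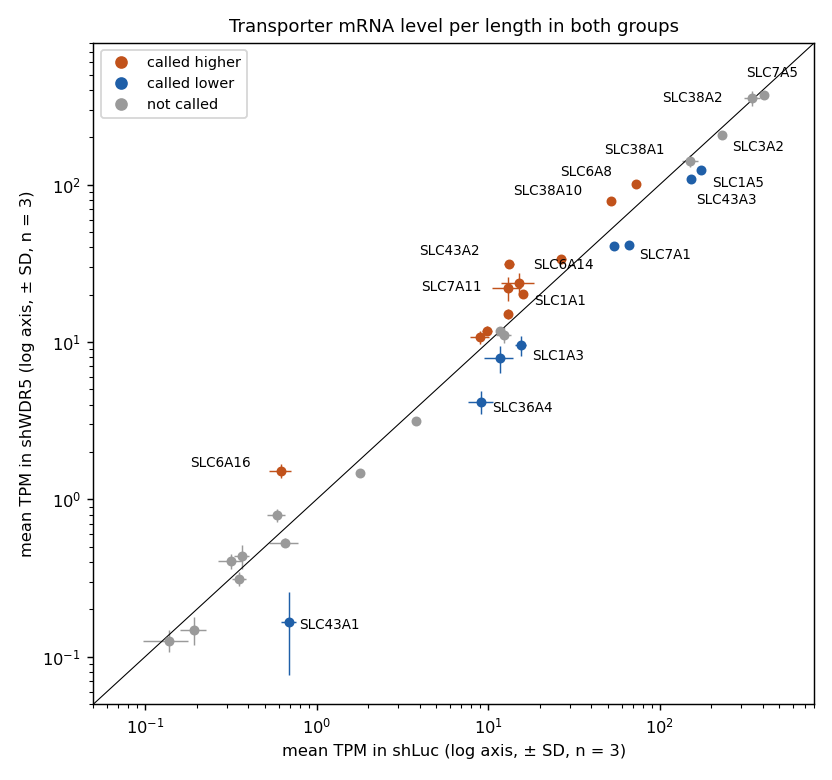
Mean TPM of each tested transporter gene in shLuc (x axis) and shWDR5 (y axis), both on log axes, with bars for ± SD over 3 libraries and a diagonal of equal level. The points span from SLC7A8, at 0.137 TPM in shLuc and 0.127 TPM in shWDR5, to SLC7A5, at 408 and 374 TPM, and SLC7A5, SLC38A2, SLC3A2 and SLC38A1 are grey, that is not called, while SLC1A5 and SLC43A3 beside them are called lower.

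The heavy chain SLC3A2 and the leucine carrier SLC7A5 (LAT1) were not called. SLC7A5 had 747, 727 and 707 CPM in shLuc and 736, 693 and 676 CPM in shWDR5 (log2 fold change -0.05 ± 0.05 SE, adjusted p = 0.44). SLC3A2 had 276, 256 and 256 CPM in shLuc and 266, 248 and 234 CPM in shWDR5 (log2 fold change -0.07 ± 0.06 SE, adjusted p = 0.34). The groups overlapped for both genes in CPM, while in TPM, which carries no TMM scaling, every shWDR5 library lay below every shLuc library (SLC7A5 at 398 to 416 against 367 to 384 TPM, SLC3A2 at 225 to 237 against 199 to 217 TPM). The ratio of SLC7A5 to SLC3A2 in TPM was between 1.73 and 1.84 in all 6 libraries. Reads of SLC7A5 can also fall on its partial copies SLC7A5P2 and SLC7A5P1, which held 115 to 270 and 13 to 35 reads. Reads that match both the gene and a copy were not measured, so the uncertainty of its count is not known.

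The light chains SLC7A11 and SLC7A6 were higher in shWDR5. SLC7A11 (xCT), which brings in cystine in exchange for glutamate, had 40.6, 57.7 and 49.3 CPM in shLuc and 74.5, 88.1 and 102 CPM in shWDR5. Every shWDR5 library lay above every shLuc library, with a wide spread within each group. The difference was 1.79-fold (log2 fold change 0.84 ± 0.13 SE, adjusted p = 0.00034). Its share of the summed TPM of the 5 tested light chains was 2.35%, 3.39% and 2.97% in shLuc 4.2%, 5.19% and 6.09% in shWDR5. SLC7A6 (y+LAT2), an exchanger of cationic for neutral amino acids, was 1.33-fold higher (64.2, 64.4 and 70.9 CPM in shLuc against 90.0, 89.6 and 85.2 CPM in shWDR5, adjusted p = 0.00021). SLC7A11 shares 276 exon bases with SLC7A11-AS1 and SLC7A6 shares 791 with SLC7A6OS, each on the opposite strand, and the sources used here do not give the strand setting of the counting, so reads of these partners cannot be told apart there. SLC7A7 and SLC7A8, at no more than 0.510 CPM in any library, were not called.

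SLC7A1 (CAT1), the main carrier of arginine and lysine in most cells, was lower in shWDR5. It had 188, 194 and 189 CPM in shLuc and 128, 128 and 123 CPM in shWDR5, with a narrow spread inside each group and no overlap. This was 1.51-fold lower (log2 fold change -0.59 ± 0.05 SE, adjusted p = 5.1e-06). As the other tested cationic carrier, SLC7A14, was low and not called, the summed level of the cationic carriers followed SLC7A1, from 66.4 ± 2.54 to 41.9 ± 0.55 TPM (mean ± SD, n = 3).

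Of the ASC carriers, sodium-dependent exchangers of small neutral amino acids, SLC1A5 (ASCT2) fell and SLC1A4 (ASCT1) was not called. SLC1A5, which also carries glutamine, had 227, 217 and 214 CPM in shLuc and 170, 165 and 156 CPM in shWDR5. It was 1.34-fold lower in shWDR5 with no overlap (log2 fold change -0.42 ± 0.05 SE, adjusted p = 8.5e-05). SLC1A4 was at 6.69 to 7.33 CPM in shLuc and 5.96 to 6.46 CPM in shWDR5, where the groups also did not overlap but the adjusted p was 0.084.

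The glutamate and aspartate carriers moved apart. SLC1A3 (EAAT1, GLAST) had 27.9, 29.6 and 31.6 CPM in shLuc and 16.4, 21.3 and 19.7 CPM in shWDR5, 1.55-fold lower (adjusted p = 0.00027). SLC1A1 (EAAT3) had 23.4, 23.0 and 23.8 CPM in shLuc and 30.5, 32.0 and 31.6 CPM in shWDR5, 1.34-fold higher (adjusted p = 0.00018). Neither gene's groups overlapped. The summed TPM of the glutamate carriers was 31.7 ± 1.58 in shLuc and 30.0 ± 2.21 in shWDR5, with overlapping values, while the share of SLC1A1 in that sum was 51.9%, 50% and 49.2% in shLuc and 70.2%, 65.8% and 67.3% in shWDR5. SLC1A2 (EAAT2), at 0.618 to 1.09 CPM, was not called.

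**Figure D3:**
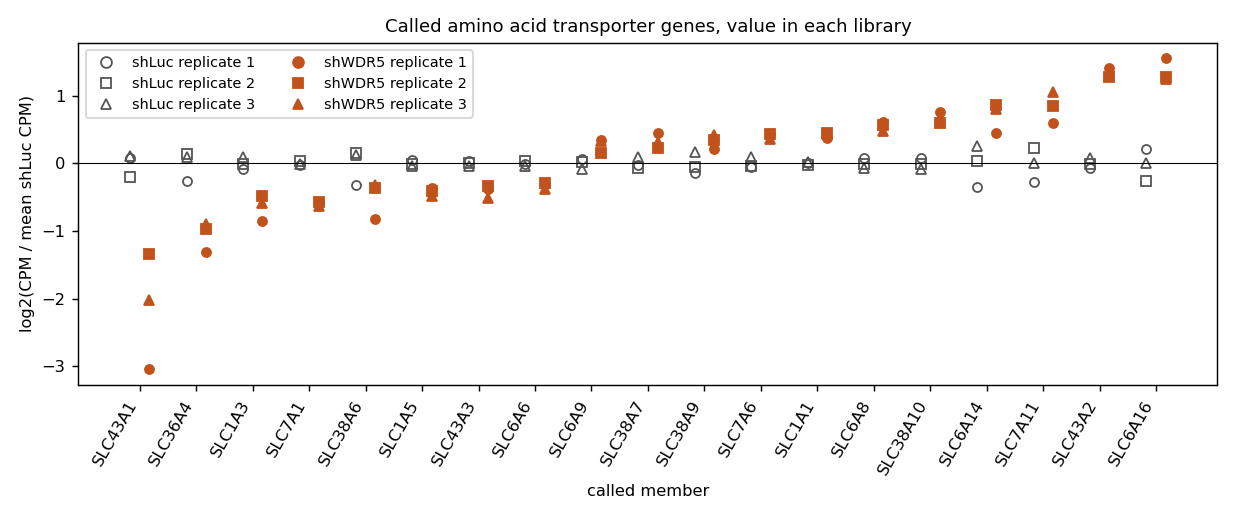
Log2 ratio of each library's CPM to the mean CPM of shLuc (y axis) for the 19 called transporter genes, ordered by fold change, with open symbols for the 3 shLuc and filled symbols for the 3 shWDR5 libraries. As genes chosen for being called, they show filled symbols apart from open ones, narrowly for SLC38A6, and the spread over libraries is wide for SLC43A1, SLC38A6, SLC6A14 and SLC7A11 and narrow for SLC7A1, SLC1A1 and SLC43A2.

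In the SLC38A family, the abundant glutamine carriers SLC38A1 (SNAT1) and SLC38A2 (SNAT2) were not called. SLC38A1 had 534, 625 and 615 CPM in shLuc and 537, 604 and 609 CPM in shWDR5 (log2 fold change -0.02 ± 0.07 SE, adjusted p = 0.85). SLC38A2 had 595, 709 and 695 CPM in shLuc and 641, 748 and 753 CPM in shWDR5 (log2 fold change 0.10 ± 0.08 SE, adjusted p = 0.33). In a fit with a block for the replicate number, SLC38A2 was called higher (adjusted p = 0.030). For both genes replicate 1 was the lowest library of its group and the groups overlapped. The genes lie 88762 bases apart on chromosome 12.

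Other SLC38A members did change. SLC38A10, whose role as a carrier is less settled, had 111, 105 and 99.8 CPM in shLuc and 178, 160 and 167 CPM in shWDR5, 1.60-fold higher with no overlap (adjusted p = 9.5e-06). SLC38A7, which exports glutamine from lysosomes, was 1.26-fold higher (17.5, 17.0 and 19.1 CPM against 24.4, 20.8 and 22.1 CPM, adjusted p = 0.0053). SLC38A9, the lysosomal arginine sensor of mTORC1, had 10.1, 10.8 and 12.6 CPM in shLuc and 13, 14.1 and 15.0 CPM in shWDR5, 1.26-fold higher (adjusted p = 0.012). That call was lost when shLuc replicate 2 was left out (adjusted p = 0.058). SLC38A6, a less studied member, was 1.39-fold lower (8.28, 11.5 and 11.3 CPM against 5.85, 8.08 and 8.25 CPM, adjusted p = 0.021). Its shLuc replicate 1 lay just above the 2 higher shWDR5 libraries, and the call was lost without shLuc replicate 2, shLuc replicate 3 or shWDR5 replicate 1 (adjusted p = 0.087, 0.10 and 0.059).

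SLC36A4, a carrier of proline and tryptophan, was lower in shWDR5. It had 18.7, 24.7 and 24 CPM in shLuc and 9.05, 11.5 and 12.1 CPM in shWDR5, with replicate 1 lowest in both groups and no overlap between them (2.06-fold lower, log2 fold change -1.05 ± 0.13 SE, adjusted p = 6.2e-05). Its relative SLC36A1 (PAT1), a proton-coupled exporter of the lysosome, had 28.0, 29.2 and 28.3 CPM in shLuc and 31.1, 29.2 and 30.1 CPM in shWDR5 and was not called (adjusted p = 0.30). SLC36A2, at 1.97 to 2.55 CPM, was not called either.

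All 3 members of the SLC43A family were called, 1 higher and 2 lower, beside 26.6% and 29.9% of all genes. Of the lower calls, that of SLC43A1 rests on few reads, so the count for the family is not read as a result. Leaving SLC43A1 aside, SLC43A2 was higher and SLC43A3 was lower. SLC43A2 (LAT4; hg19 chr17:1472548-1532180, minus strand, 17 exon blocks), a sodium-independent carrier of branched-chain amino acids, phenylalanine and methionine, had 43.7, 45.5 and 48.2 CPM in shLuc and 122, 110 and 112 CPM in shWDR5. The groups lay far apart beside the spread within them, and the gene was 2.51-fold higher (log2 fold change 1.33 ± 0.06 SE, adjusted p = 1.8e-07), the lowest adjusted p of any member. SLC43A1 (LAT3; hg19 chr11:57252004-57283192, minus strand), which carries the same amino acids, was the least abundant called member, with 37, 24 and 31 reads in shLuc and 4, 16 and 8 reads in shWDR5. This was 0.749, 0.619 and 0.768 CPM against 0.0863, 0.282 and 0.176 CPM, 3.76-fold lower on few reads (log2 fold change -1.91 ± 0.32 SE, adjusted p = 0.00055). SLC43A1 passed the read filter through its shLuc libraries, the group where it is high. Its fold and p-value therefore describe these counts only, and no conclusion is drawn from them. SLC43A2 held most of the summed TPM of SLC43A1 and SLC43A2 in both groups, 94.6% to 95.7% in shLuc and 99.2% to 99.8% in shWDR5. The difference between these shares also rests on the few reads of SLC43A1, so no shift between the genes is read from it. SLC43A3, which carries purine nucleobases rather than amino acids, had 180, 176 and 170 CPM in shLuc and 135, 139 and 123 CPM in shWDR5, 1.33-fold lower with no overlap (adjusted p = 0.00022). SLC43A3 and SLC43A1 are neighbours on chromosome 11, 56950 bases apart.

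In the SLC6A family, whose members move neurotransmitters, amino acids, taurine or creatine with sodium and chloride, 4 of the 9 tested genes were higher and 1 was lower, beside 26.6% and 29.9% of all genes. SLC6A14 (ATB0,+), a concentrating carrier of neutral and cationic amino acids, had 21.3, 27.7 and 32.3 CPM in shLuc and 37.0, 49.3 and 47.2 CPM in shWDR5. The lowest shWDR5 library was just above the highest shLuc library (1.65-fold higher, log2 fold change 0.72 ± 0.15 SE, adjusted p = 0.0018). SLC6A16, an orphan member with no settled substrate, rose 2.54-fold from a low level (0.830, 0.593 and 0.719 CPM against 2.09, 1.72 and 1.70 CPM, adjusted p = 8.9e-05).

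The creatine carrier SLC6A8 had 111, 104 and 99.7 CPM in shLuc and 159, 155 and 146 CPM in shWDR5, 1.47-fold higher with no overlap (adjusted p = 3.0e-05). Its near-identical copy SLC6A10P held 199, 196 and 178 reads in shLuc and 388, 439 and 334 reads in shWDR5, and the division of reads between both is uncertain. The glycine carrier SLC6A9 was 1.21-fold higher (19.8, 19.2 and 18.0 CPM against 24.2, 21.0 and 23.8 CPM, adjusted p = 0.011), the smallest called change. The taurine carrier SLC6A6 was 1.26-fold lower (147, 152 and 144 CPM against 119, 120 and 113 CPM, adjusted p = 0.0004). SLC6A9 shares 44 exon bases with CCDC24 and SLC6A6 shares 239 with GRIP2 on the opposite strand. The summed level of the family was 170 ± 4.51 TPM in shLuc and 196 ± 4.57 TPM in shWDR5 (mean ± SD, n = 3), most of it from SLC6A8 and SLC6A6.

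Below the read filter, the neighbouring genes SLC6A13 and SLC6A12 (carriers of GABA, taurine and betaine, 6415 bases apart on chromosome 12) stood out among untested members. SLC6A13 had 1, 1 and 0 reads in shLuc and 10, 10 and 11 reads in shWDR5, and SLC6A12 had 0, 0 and 0 reads against 3, 5 and 5. Both passed the threshold when the filter was dropped (adjusted p = 0.00068 and 0.0082), on counts too small for a fold to be given. They were named after their values were seen, so these p-values restate the counts and are no separate test. SLC6A12 shares 59 exon bases with LOC101929384 on the opposite strand.

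The promoters of the members were searched for 3 short motifs known from amino acid and stress responses, in windows of 250 bases before and 50 bases from the start site (RefSeq, GRCh38.p14, both strands, 66 windows of 44 members). The composite site bound by ATF4 with C/EBP factors, written TGATGNAA, lay in 6 windows of 6 members (9.09%), beside 3.62% of 35116 windows of all genes. Of these 6 members SLC1A3, SLC1A5 and SLC7A1 were called lower in shWDR5, and SLC1A4, SLC38A1 and SLC3A2 were not called, where 29.9% of all genes tested were called lower. Of the called members, SLC7A11 (higher), SLC43A3 and SLC6A6 (both lower) had no window and were not searched. The E-box CACGTG lay in 15.2% of member windows and 7.26% of all windows, and the antioxidant motif TGACNNNGC in 10.6% and 13.3%. No match of one motif overlapped one of another. The 6 composite matches are shown because their members share a motif while 3 were called and 3 were not. Each is 30 bases, 5′ to 3′ on the strand of the gene, with the match in capitals on either strand (TGATGNAA or its reverse complement), and with 1 as the start base.
SLC1A3 (chr5:36596357-36596386, plus, match from -220 to -213): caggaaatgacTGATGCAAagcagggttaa
SLC1A5 (chr19:46784893-46784922, minus, match from -97 to -90): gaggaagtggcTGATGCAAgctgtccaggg
SLC7A1 (chr13:29595663-29595692, minus, match from 8 to 15): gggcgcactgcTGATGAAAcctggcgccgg
SLC1A4 (chr2:64989381-64989410, plus, match from -7 to 1): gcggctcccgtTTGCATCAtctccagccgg
SLC38A1 (chr12:46266502-46266531, minus, match from -4 to 4): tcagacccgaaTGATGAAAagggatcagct
SLC3A2 (chr11:62881719-62881748, plus, match from 38 to 45): gtaatgtgcaggactccTTACATCAgctcc
SLC1A3 and SLC1A5 carry the same 8 letters, which SLC1A4 has on the other strand, and SLC7A1 and SLC38A1 carry the same 8 letters, while SLC7A1 fell and SLC38A1 was not called. All but SLC7A1 have more than one listed start site, and each match belongs to the window of 1 of them. For SLC1A3 that start is at 36596588, upstream of another listed start at 36606606 (GRCh38). The exons of SLC1A3 in the counts begin at 36606457 (hg19), and the use of either start was not measured. A match describes letters in the window and no binding was measured here.

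Genes that answer to, sense or use amino acids also went in both directions. Of 16 genes of the ATF4 response, which is switched on when amino acids run short, 7 were higher and 4 lower (median log2 fold change 0.15, against -0.01 in all genes). CHAC1, a glutathione-degrading enzyme, had 2.65, 2.42 and 2.78 CPM in shLuc and 15.2, 13.1 and 13.5 CPM in shWDR5, 5.31-fold higher (adjusted p = 9.6e-08). SESN2, ATF5 and VLDLR followed, with log2 fold changes of 1.07, 1.04 and 0.88. ATF4 itself was lower, at 533, 520 and 516 CPM against 447, 426 and 420 CPM (adjusted p = 0.00076), as were TRIB3, CEBPG and PCK2 (log2 fold changes -0.52, -0.39 and -0.57). Over all genes tested, 26.6% were called higher and 29.9% lower.

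Of 22 genes of amino acid sensing by mTORC1, 9 were higher and 4 lower (median log2 fold change 0.12), beside 26.6% and 29.9% of all genes. The sestrin genes SESN1 and SESN3, inhibitors of mTORC1, had log2 fold changes of 1.06 and 1.02, and SAMTOR (listed as C7orf60), the sensor of S-adenosylmethionine, 0.89. RRAGD, a Rag GTPase, was lower with -0.74. The kinase gene MTOR was not called (log2 fold change -0.04 ± 0.05 SE, adjusted p = 0.52).

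Enzymes that use the carried amino acids were likewise called in both directions. Of 11 tested genes of glutamine, glutamate and aspartate metabolism, 2 were higher and 5 lower (median log2 fold change -0.10), beside 26.6% and 29.9% of all genes. Glutamine synthetase GLUL had 162, 162 and 161 CPM in shLuc and 83.4, 89.9 and 83.8 CPM in shWDR5, 1.89-fold lower (adjusted p = 5.3e-07). GOT1, the cytosolic aspartate transaminase, and GLS2 were lower with log2 fold changes of -0.87 and -0.75, and the alanine transaminase GPT was higher with 1.86. Beside the higher SLC7A11, 2 of 10 genes of cystine and glutathione metabolism were higher and 5 lower (median -0.23), beside the same shares of all genes. Glutathione reductase GSR fell by 0.86 on the log2 scale, CTH by 0.53 and GCLM by 0.52, and GGT1 was higher by 1.29.

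Beside the higher SLC43A2, all 7 tested genes of branched-chain amino acid breakdown were called, 2 higher and 5 lower (median log2 fold change -0.27), beside 26.6% and 29.9% of all genes. PPM1K and BCKDHB, which activate and form the branched-chain ketoacid dehydrogenase, were lower (-0.82 and -0.64 on the log2 scale), and BCKDK, the kinase that inhibits it, was higher (0.61), as was BCAT2 (0.56). Of 12 tested carriers in other SLC families and organelles, 4 were higher and 2 lower (median 0.11), beside the same shares of all genes. The lysosomal cystine exporter CTNS had 12.4, 13.5 and 12.5 CPM in shLuc and 26.1, 20.4 and 22.9 CPM in shWDR5, 1.81-fold higher (adjusted p = 3.1e-05). The mitochondrial glycine carrier SLC25A38 was higher (0.71 on the log2 scale), and SLC25A29 and SLC25A15, carriers of basic amino acids and ornithine, were lower (-0.67 and -0.57).

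**Figure D4:**
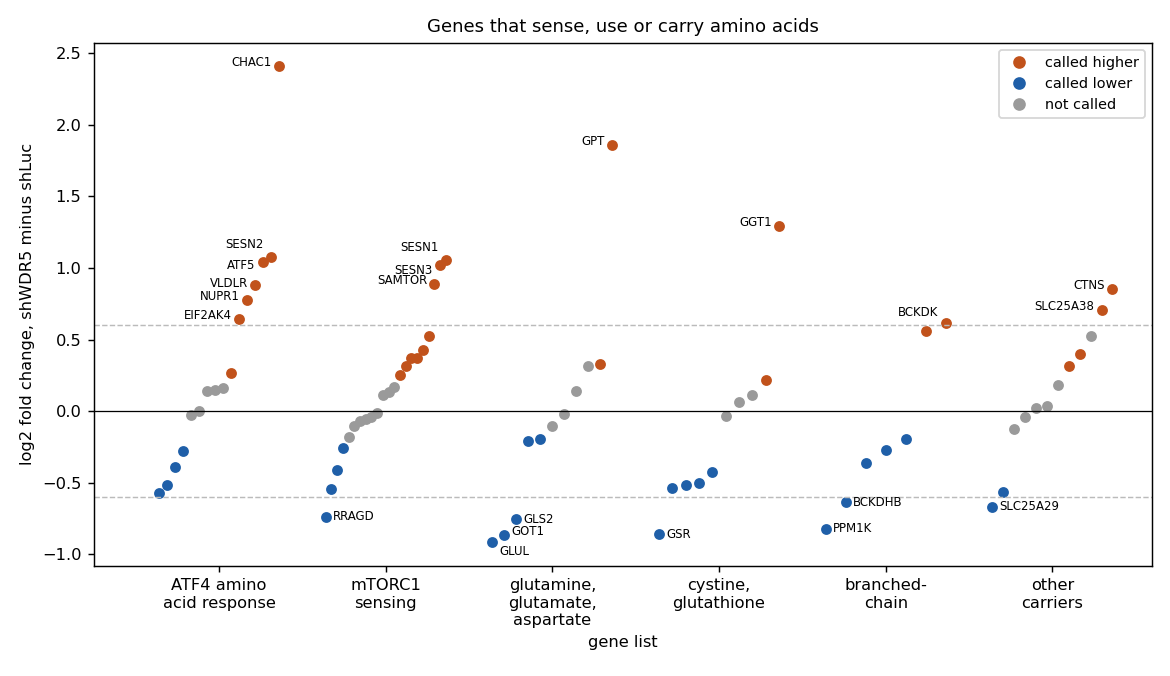
Log2 fold change (shWDR5 minus shLuc, y axis) of the tested genes in 6 lists of genes that sense, use or carry amino acids, ordered by value within each list, with dashed lines at 0.6 on either side of 0 and names for the called genes beyond these lines. Each list holds called genes in both directions, and CHAC1 (2.41) and GPT (1.86) lie highest.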

How the data were processed

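The authors deposited raw read counts per gene symbol, made with TopHat2 2.1.0 and featureCounts on hg19 according to the submitters' processing notes, which also name edgeR 3.2.2. The strand setting is not given in the sources used here. A deposited table of the authors' own fold changes and p-values was not used. From the deposited counts, genes were filtered with filterByExpr and tested with edgeR 4.0.16 in R 4.3.3 (TMM, quasi-likelihood test, no covariates, 3 libraries a group, call at adjusted p below 0.05). The procedure was tested on simulated data, but no result of that test is given here. SE is the absolute log2 fold change divided by the root of F. CPM were scaled by TMM, and TPM used the exon length in the count table. An exact permutation test of 3 against 3 cannot give p below 0.10, so none is given. Members and lists were chosen with earlier results of these data known. Named members were all those called, the most abundant and a set of well-known carriers, and each companion list is shown by its called genes of greatest change. ATF4, TRIB3, CEBPG, PCK2, MTOR, SLC6A12 and SLC6A13, and members that were not called, were added after their values were seen. Alternatives were other scaling, filters, DESeq2 1.42.0, edgeR's exact test, a replicate block and leaving out libraries. Replicates differed by more than sampling noise.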

Additional observations from a re-analysis of the deposited data

How the results depend on the processing

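All 19 transporter calls kept their direction and side of the threshold with RLE size factors, library totals alone, DESeq2, edgeR's exact test, no low-count filter, the replicate block, and without replicate 1 of both groups (added after seeing the data). With a mean RPKM limit of 0.5, 18 of the 19 were still tested and all 18 kept their call. SLC43A1 was the called member that fell below this limit, which left 11 members higher and 7 lower. Leaving out 1 library lost SLC38A6 and SLC38A9 only, as given above. Without shLuc replicate 2 or shLuc replicate 3, 35 members were tested, and in each case 1 newly tested member was called. SLC38A1 was not called in any fit that left out 1 library. Its log2 fold change turned from -0.02 to 0.0144, 0.0095 and 0.0378 without shLuc replicate 2, shLuc replicate 3 or shWDR5 replicate 1. Over the fits without 1 library, it was lowest at -0.0721 and highest at 0.0378. Library totals alone added SLC1A4 and SLC36A2 as lower and put the median of all genes at -0.07. The median log2 fold change of tested members was near 0 in the main fit. It moved to 0.0037 (RLE), -0.0702 (library totals), 0.0455 (RPKM limit), -0.0245 (replicate block) and 0.0033 (without replicate 1 of both groups). When 1 library was left out, it lay between -0.0390 and 0.0715. Without the filter it was 0.32 over 56 members, beside 0.0087 in all genes. The members added in that fit had at most 11 reads in any library. With the limit of 0.6 on the log2 fold change, calls dropped to 5 and 3 members, 1751 and 1939 of all genes, and 14 and 8 listed companion genes, higher and lower in that order, from 11 and 8, 4291 and 4821, and 26 and 25.

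Same-numbered libraries deviated together with r = 0.372, 0.036 and 0.116 across genes for replicates 1, 2 and 3. The main fit did not take the numbers as pairs, but replicate 1 stood apart from the others in both groups. In shLuc, chi-square per degree of freedom between libraries was 14.8 to 16.5 with replicate 1 and 7.39 between replicates 2 and 3. In shWDR5 it was 14.3 to 18.2 with replicate 1 and 7.15 between replicates 2 and 3. With the replicate block, SLC38A2 was called as well (log2 fold change 0.10, adjusted p = 0.030). The block raised calls over all genes from 4291 higher and 4821 lower to 4901 and 5511. It took SLC38A6 from an adjusted p of 0.021 to 8.8e-05. Replicate 1 was the lowest library in both groups for 10 of the 34 tested members (29.4%) and for 23.4% of all tested genes. It was the highest in both groups for 23.5% of tested members and 25.6% of all tested genes. For replicates 2 and 3 the shares of all tested genes were 8.70% and 17.0% lowest, and 7.82% and 10.6% highest. SLC43A1 and the untested members rest on few reads, and the 10 most abundant genes took 5.74% to 6.09% of reads in shLuc and 7.67% to 8.16% in shWDR5.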
